A study of Rattus norvegicus with 6 samples.

Results

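The integrated stress response and the unfolded protein response were followed through 35 genes listed by symbol for their known function. The rule itself uses no measured value, but the genes were chosen with earlier results of these data known. Of these, 14 belong to the programme of the transcription factor ATF4, 4 are sensors or transducers of stress in the endoplasmic reticulum (ER), and 17 are ER chaperones or parts of ER-associated degradation (ERAD). A row was found for 34 of the 35 among the 20264 gene symbols of the combined count table. Manf, an ER stress-inducible secreted factor, had no row in it and was not analysed here. The cells were primary nucleus pulposus cells (NPCs) cultured from the tail discs of male wild type Sprague-Dawley rats. All 6 libraries came from cells given the oxidant tert-butyl hydroperoxide (TBHP). In 3 of them, the TBHP+FGF21 group, recombinant rat fibroblast growth factor 21 was added as well. A culture without TBHP was not among these libraries, so levels before oxidant stress were not measured. The treatment label of replicate 2 of the TBHP+FGF21 group reads FGF22 and that of replicate 3 reads FGF23, while the series text describes a single FGF21 group of 3 biological replicates, which is the grouping used here. The labels give neither dose nor duration.

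In the integrated stress response, stress kinases phosphorylate the initiation factor eIF2, which slows translation in general but favours translation of ATF4. ATF4 then switches on genes for amino acid supply, redox balance and, under lasting stress, cell death. The unfolded protein response starts from the ER membrane sensors PERK (Eif2ak3), IRE1 (Ern1) and ATF6, and raises chaperones, folding enzymes and ERAD. Chondrocyte-like disc cells secrete large amounts of matrix protein and depend on this folding capacity. Much of both responses acts through translation, splicing or cleavage of proteins, which counts per gene do not show.

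The regulatory elements of these pathways are shown first. The members were listed as genes of these pathways, so a high share with such elements is no independent result. Promoters from RefSeq (GRCr8, 250 bases before to 50 after the transcription start) were matched for 30 of the 35 members. The ER stress element (ERSE) is CCAAT followed after 9 bases by CCACG, and is the site through which ATF6 acts together with the factor NF-Y. ERSE-II is ATTGG followed after 1 base by CCACG. On either strand, ERSE was found in 7 of the 30 members (23.3%) and in 22 of all 33469 promoters (0.0657%). Members were counted by gene, with a match in any of their promoters, while the background was counted by promoter. ERSE-II was found in 3 members (10%) and in 17 of all promoters (0.0508%). Of the 38 genes with either element, among 27457 with a RefSeq promoter, 10 were members. The windows below show an element of 9 of these 10, read on the gene's own strand, with both parts of the element and the bases between them in capitals. A window whose capitals begin with CGTGG holds the element on the opposite strand. The element of Dnajb11 reaches the transcription start and is not shown.
Hspa5 (chr3:38452958-38453006, plus strand): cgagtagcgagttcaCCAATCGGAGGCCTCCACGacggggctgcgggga
Hsp90b1 (chr7:23012436-23012484, minus strand): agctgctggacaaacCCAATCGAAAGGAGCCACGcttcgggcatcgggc
Canx (chr10:35158054-35158102, minus strand): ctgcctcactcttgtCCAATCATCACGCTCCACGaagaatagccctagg
Calr (chr19:40213120-40213168, plus strand): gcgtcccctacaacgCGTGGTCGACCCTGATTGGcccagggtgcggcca
Dnajc3 (chr15:102432519-102432567, plus strand): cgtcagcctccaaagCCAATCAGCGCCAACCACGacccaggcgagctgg
Creld2 (chr7:121789224-121789272, plus strand): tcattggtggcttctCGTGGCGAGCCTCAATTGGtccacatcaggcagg
Xbp1 (chr14:84604543-84604591, plus strand): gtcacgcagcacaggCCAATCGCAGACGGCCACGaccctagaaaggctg
Hyou1 (ERSE-II, chr8:53602779-53602819, plus strand): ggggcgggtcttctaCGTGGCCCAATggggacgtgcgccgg
Herpud1 (ERSE-II, chr19:10614806-10614846, minus strand): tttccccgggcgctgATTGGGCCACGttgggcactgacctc

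The element bound by dimers of ATF4 with C/EBP factors (CARE) was searched as TGATGNAA on both strands. It was found in 3 of the 30 members, counted by gene (10%), against 3.98% of all promoters, counted by promoter. Whether these shares differ was not tested. The 3 are shown with the matched bases in capitals. The XBP1 element TGACGTGG (UPRE) was found in 1 member promoter, that of Hyou1, where it overlaps another ERSE-II element, and in 0.595% of all promoters. A match describes letters in a window and does not show that a factor was bound in these cells.
Chac1 (chr3:126795949-126795986, plus strand): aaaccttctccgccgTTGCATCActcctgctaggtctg
Trib3 (chr3:161275534-161275569, minus strand): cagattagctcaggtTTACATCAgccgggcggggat
Herpud1 (chr19:10614869-10614906, minus strand): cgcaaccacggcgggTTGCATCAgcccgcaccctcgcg

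Libraries held 18277732 to 22426190 counts, and each member had at least 569 counts in each library. The cells had counts for Acan, Pax1 and Foxf1, while the notochordal markers Tbxt, Shh and Noto were at 0 in all 6 libraries. Col2a1 was at 9 to 14 counts, Krt18 at 0 to 3 and Foxa2 at 1 to 10. Of the annulus and fibroblast markers, Col1a1 was at 27868 to 42463 CPM (read counts scaled to library size) and Thy1 at 1021 to 1188 CPM. In the same list, Col1a2 was at 7 to 17 counts, Dpt at 1 to 13 and Tnmd at 0. Why Col1a2 was this low beside Col1a1 was not tested. Of 8 macrophage markers, Ptprc, Adgre1, Cd163 and Mrc1 were at 0. The summed level of the list was 32.2 to 37.9 CPM in the TBHP group and 26.6 to 32.9 CPM in the TBHP+FGF21 group. Most of this sum was Cd14, at 25 to 35.6 CPM, while Cd68 was at 1.27 to 2.27 CPM. The endothelial markers stayed under 1 CPM in sum, with Cdh5, Kdr and Emcn at 0. The summed nucleus pulposus and notochordal list was at 3298 to 3735 CPM in the TBHP group and at 3662 to 5351 CPM in the TBHP+FGF21 group, highest in replicate 3. Replicate 2 of the TBHP+FGF21 group had a mean Spearman's rho across genes of 0.9959 with the TBHP libraries and of 0.9902 with its own group. For TBHP replicate 3 these were 0.9938 with the TBHP+FGF21 libraries and 0.9931 with its own group.

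With FGF21 the members were close to their level under TBHP alone. By edgeR's quasi-likelihood test on all libraries, none of the 34 members had an adjusted p under 0.05, nor did any by DESeq2 or limma-voom, and 1 of the 11426 genes tested did (0.00875%), which was Sirt1, no member. At an unadjusted p under 0.05 there was 1 member, Gdf15, which was higher with FGF21, where 4.63% of all genes were higher and 4.29% were lower at that level. Of the 34, 13 were higher and 21 were lower, with a median log2 fold change of -0.05, against -0.01 over all genes tested. The absolute log2 fold change was under 0.25 in 33 members and under 0.1 in 15. The 95% intervals of the 33 members other than Gdf15 all held 0. They reached from 0.678-fold (Sdf2l1) to 1.38-fold (Sesn2). Each is an interval for a single gene, so this range is no joint bound on the members. The 2 groups were fully separated for 4 members, all lower with FGF21 (Canx, Creld2, Dnajb11 and Dnajc3), where 5% of all genes were lower and 4.9% higher without overlap.

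**Figure D1:**
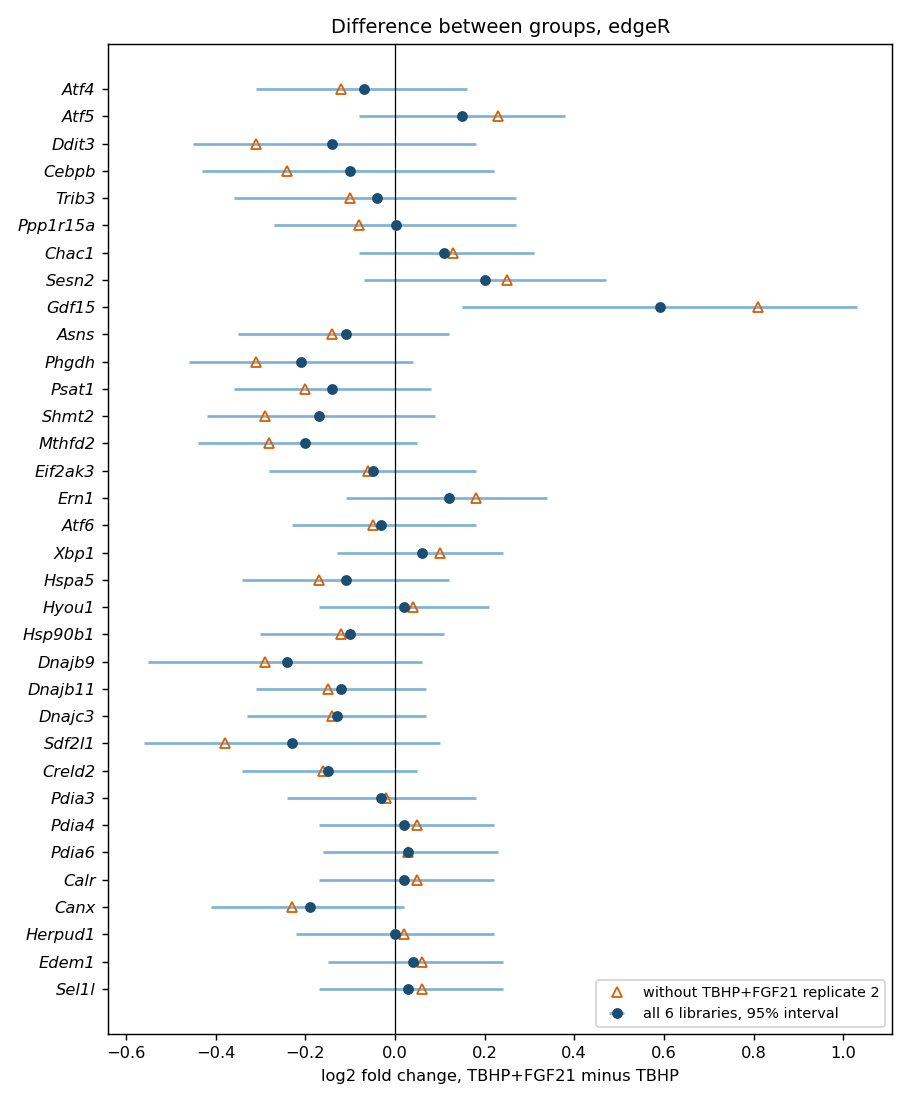
Log2 fold change of each of the 34 members (TBHP+FGF21 minus TBHP, x axis; genes on the y axis in order of role) by edgeR, with 95% intervals from all 6 libraries (filled circles, bars) and the value without replicate 2 of the TBHP+FGF21 group (open triangles). The interval of Gdf15, from 0.15 to 1.03, lies above 0, and the other 33 intervals hold 0.

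Among the transcription factors of the ATF4 arm, no difference passed the test. Atf4 itself was at 520, 514 and 460 CPM in TBHP replicates 1, 2 and 3, and at 503, 507 and 408 CPM with FGF21. The last of these libraries was the lowest of all 6, and the others overlapped. This gave a log2 fold change of -0.07 (SE 0.11, adjusted p = 0.817 by edgeR), where SE is its standard error. Ddit3, which encodes the pro-apoptotic factor CHOP, was at 56.9, 61.3 and 51.1 CPM with TBHP and at 50.4, 63.3 and 40.3 CPM with FGF21. Its highest and its lowest value thus both came from libraries with FGF21. The log2 fold change of Ddit3 was -0.14 (95% interval -0.45 to 0.18). Atf5, a relative of ATF4 that serves the mitochondrial stress response, was at 342, 298 and 332 CPM with TBHP and 395, 320 and 362 CPM with FGF21. It was the factor with the largest positive value, 0.15 (95% interval -0.08 to 0.38). Cebpb, a partner of ATF4 on DNA, was at -0.10 (95% interval -0.43 to 0.22).

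Gdf15 stood at the upper end of the members. It encodes a secreted stress cytokine that ATF4 and CHOP induce. Its levels were 48.8, 36.2 and 39.6 CPM in the TBHP group and 59.9, 42.4 and 84.6 CPM with FGF21, with means of 41.5 ± 6.51 and 62.3 ± 21.2 CPM (SD, n = 3). Replicates 1 and 3 with FGF21 were above every TBHP library, and replicate 2 lay within the TBHP range. The log2 fold change came to 0.59 (SE 0.20, unadjusted p = 0.0129, adjusted p = 0.553 by edgeR). With TBHP+FGF21 replicate 3 left out it was 0.31. With TBHP+FGF21 replicate 2 left out it was 0.81 (adjusted p = 0.00214 by edgeR), which made Gdf15 the single member called among the 34, where 3.78% of all genes were called higher and 3.72% lower.

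**Figure D2:**
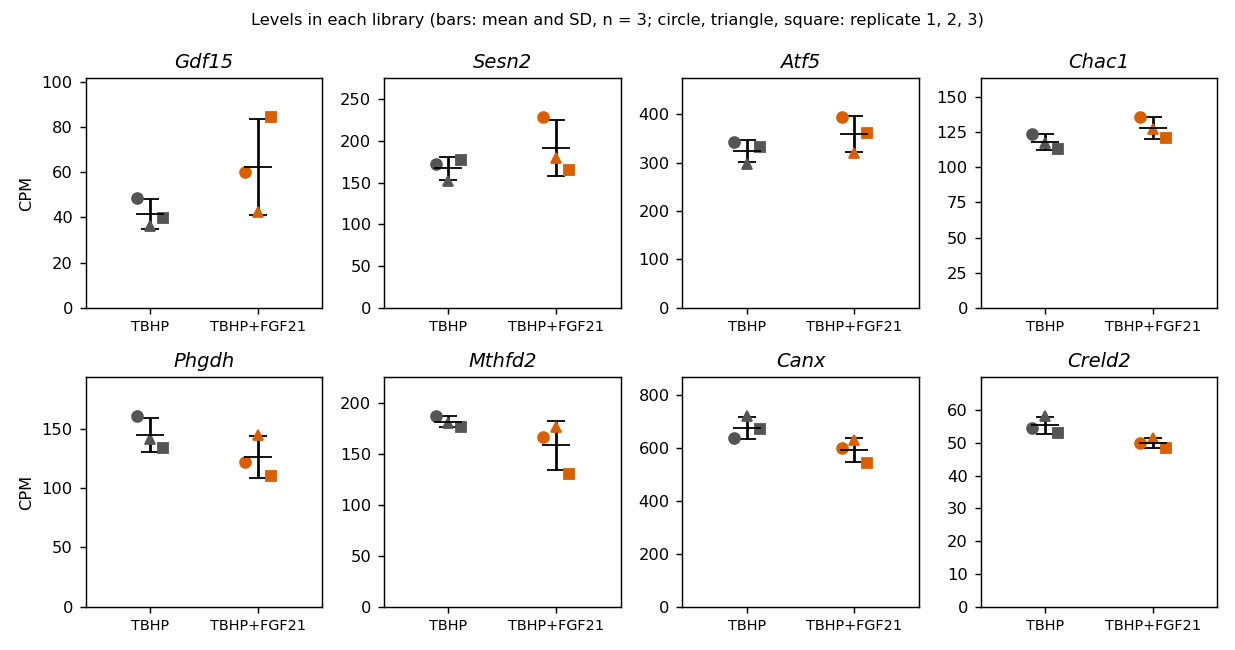
CPM of 8 members in each library (y axis, from 0), with the TBHP group in grey and the TBHP+FGF21 group in orange, and bars for mean and SD (n = 3). Gdf15 is at 59.9 and 84.6 CPM in replicates 1 and 3 with FGF21 and at 42.4 CPM in replicate 2, while for Canx and Creld2 every orange point is below every grey one.

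The other stress targets of ATF4 did not pass the test either. Sesn2, which encodes the leucine sensor and mTORC1 inhibitor Sestrin2, was at 172, 152 and 177 CPM with TBHP and 229, 179 and 165 CPM with FGF21. Replicate 1 alone was far above the TBHP libraries, and the log2 fold change of 0.20 was 0.06 without it. Without TBHP+FGF21 replicate 3 it was 0.30 (adjusted p = 0.973 by edgeR). Sesn2 was then the single member with an unadjusted p under 0.05, which 341 of 11521 genes tested had. Chac1, which degrades glutathione, was at 124, 117 and 113 CPM with TBHP and 136, 127 and 121 CPM with FGF21, with overlap between the groups and a log2 fold change of 0.11 (95% interval -0.08 to 0.31). The negative feedback genes were close to 0. Trib3, a pseudokinase that restrains ATF4 and CHOP, had a log2 fold change of -0.04 (95% interval -0.36 to 0.27), and 0.13 with TBHP+FGF21 replicate 3 left out. Ppp1r15a, which encodes GADD34 and directs dephosphorylation of eIF2, had the same mean of 175 CPM in both groups (95% interval of the log2 fold change -0.27 to 0.27).

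The 5 enzymes of amino acid and one-carbon metabolism were all lower in the group mean with FGF21, none past the test. This role, like the others, was set with earlier results of these data known. Phgdh and Psat1 catalyse steps of serine synthesis, Shmt2 and Mthfd2 carry serine-derived carbon in mitochondrial folate metabolism, and Asns makes asparagine. Phgdh was at 161, 141 and 134 CPM with TBHP and 122, 145 and 110 CPM with FGF21. Mthfd2 was at 188, 181 and 177 CPM and at 167, 177 and 131 CPM. In both, replicates 1 and 3 with FGF21 were below the TBHP libraries. Replicate 2 lay inside the TBHP range for Phgdh and level with the lowest TBHP library for Mthfd2. Their log2 fold changes were -0.21 (95% interval -0.46 to 0.04) and -0.20 (95% interval -0.44 to 0.05), with adjusted p of 0.568 and 0.574 by edgeR. Shmt2 was at -0.17, Psat1 at -0.14 and Asns at -0.11. Each of the 5 had its lowest value in TBHP+FGF21 replicate 3, and for Asns the log2 fold change was -0.0033 without this library. With TBHP+FGF21 replicate 2 left out, the median of the 5 went from -0.17 to -0.28, and again none had an adjusted p under 0.05. Without replicate 3 the median was -0.07, with Phgdh at -0.12 and Mthfd2 at -0.07.

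Other ATF4 targets were also mostly lower in the group mean. In a list of 33 other ATF4 targets, 27 could be tested, of which 24 were lower and 3 higher with FGF21, with a median of -0.14. Here 3 genes were lower at an unadjusted p under 0.05 (11.1% of the list, against 4.29% of all genes) and none was higher. Slc7a3, a cationic amino acid transporter, had the smallest p of these, at 14.2, 16.1 and 14 CPM with TBHP and 9.62, 14.1 and 6.45 CPM with FGF21. The TBHP+FGF21 replicate 2 value lay inside the TBHP range and the other two lay below it. Its log2 fold change came to -0.56 (SE 0.22, adjusted p = 0.553 by edgeR). With TBHP+FGF21 replicate 2 left out, it was -0.87 (adjusted p = 0.00532 by edgeR), and 6 genes of this list were called lower, as were 3.72% of all genes. Without TBHP+FGF21 replicate 3 it was -0.31, and the median of the list was -0.04. Pck2, the mitochondrial PEP carboxykinase, and Pmaip1, which encodes the cell death protein NOXA, both named after their values were seen, were the other two, at -0.30 and -0.41 with all libraries and at -0.18 and -0.19 without TBHP+FGF21 replicate 3. Upward, the smallest p was that of the glycine transporter Slc6a9 at 0.21 (adjusted p = 0.559 by edgeR). Of the 19 aminoacyl-tRNA synthetases, which charge tRNAs with amino acids, 17 were lower and 2 higher, with a median of -0.11, and 1 was under 0.05 unadjusted. This was Nars1, at 375 ± 24.9 CPM with TBHP and 299 ± 56.1 CPM with FGF21 (SD, n = 3; log2 fold change -0.33, adjusted p = 0.553 by edgeR). It was called lower, at -0.48 (adjusted p = 0.0131 by edgeR), when TBHP+FGF21 replicate 2 was left out, and at -0.21 without replicate 3. Qars1, at 0.03, had the smallest p upward. Over all genes, 5834 of 11426 were lower (51.1%). Replicate 3 of the TBHP+FGF21 group was the lowest of the 6 libraries for 21 of the 27 targets, 10 of the 19 synthetases and 9 of the 14 ATF4 programme members, and for 23.9% of all genes. In the same library the nucleus pulposus marker sum was highest, at 5351 CPM, and the annulus and fibroblast marker sum lowest, at 29326 CPM against 39565 to 43807 CPM in the TBHP group. These sums are mainly Acan and Col1a1, and single markers differed in direction, with Thy1 and Pdgfra highest and Krt8 and Hif1a lowest in this library. Their part in these values was not tested.

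No gene of the input side of the response passed the test. In the list of eIF2 kinases other than PERK, eIF2, eIF2B and their regulators, 7 of 19 were higher and 12 lower, with a median of -0.02 and none under 0.05 unadjusted. The eIF2 subunit gene Eif2s2 had the smallest p of those that were lower, at a log2 fold change of -0.28 (adjusted p = 0.553 by edgeR). Leaving out TBHP+FGF21 replicate 2 gave -0.44 (adjusted p = 0.0177 by edgeR), and leaving out replicate 3 gave -0.16. In the fit without replicate 2, 2 genes of this list were called lower, Eif2s1 and Eif2s2, as were 3.72% of all genes. The eIF2B subunit gene Eif2b5 had the smallest p of those that were higher, at 0.15 with all libraries (adjusted p = 0.602 by edgeR). Among the ER sensors, Eif2ak3 was at 37.5, 35.2 and 42.3 CPM with TBHP and 34.4, 37.9 and 38.8 CPM with FGF21, a log2 fold change of -0.05. Atf6 was at -0.03 (95% interval -0.23 to 0.18). Ern1 was at 78.9, 78.6 and 82.7 CPM with TBHP and at 100, 79.7 and 80.7 CPM with FGF21, so that its log2 fold change of 0.12 came from replicate 1 and was 0.01 without it. Xbp1, whose transcript IRE1 splices, was at 138, 140 and 142 CPM and at 147, 138 and 151 CPM, with a log2 fold change of 0.06 (95% interval -0.13 to 0.24). Counts per gene do not separate its spliced and unspliced forms. Of 12 other sensors and membrane factors, 7 were higher and 5 lower, with a median of 0.02. Wfs1 at 0.16 and Bloc1s1 at -0.18 had the smallest p in each direction (adjusted p = 0.600 and 0.720 by edgeR).

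No ER chaperone gene passed the test. Hspa5, which encodes BiP, the lumenal HSP70 that also holds the sensors inactive, was at 1132, 1322 and 1320 CPM with TBHP and 1119, 1276 and 1105 CPM with FGF21. Replicates 1 and 3 with FGF21 were below every TBHP library, though close to TBHP replicate 1. The groups overlapped through replicate 2 with FGF21, which lay inside the TBHP range. The log2 fold change was -0.11 (95% interval -0.34 to 0.12). Hsp90b1, which encodes GRP94, was at -0.10 (95% interval -0.30 to 0.11), and the nucleotide exchange factor gene Hyou1 was at 0.02 (95% interval -0.17 to 0.21). The disulphide isomerase genes, which form and shuffle disulphide bonds, differed little between the means. Pdia3, Pdia4 and Pdia6 had log2 fold changes of -0.03, 0.02 and 0.03. Of the lectin chaperones, which hold newly made glycoproteins, soluble Calr was at 1981 ± 31.3 CPM with TBHP and 2009 ± 43.6 CPM with FGF21 (SD, n = 3). Membrane-bound Canx differed more, at 636, 721 and 669 CPM with TBHP and 599, 630 and 543 CPM with FGF21. Its groups did not overlap, but the difference did not pass the test (log2 fold change -0.19, SE 0.10, adjusted p = 0.559 by edgeR).

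The J-domain proteins and small cofactors of the ER were all lower in the group mean. Of these 5, 3 did not overlap between the groups, where 5% of all genes were lower without overlap. The role was drawn up with earlier results of these data known, so it is no independent set. Hyou1, at 0.02, was placed with the HSP70 class. Dnajb11 was at 193, 204 and 193 CPM with TBHP and 180, 191 and 172 CPM with FGF21. Dnajc3, which encodes p58IPK, was at 66.3, 73.2 and 69.4 CPM and at 65.7, 65.8 and 59.6 CPM. Creld2, an ER stress-inducible secreted protein, was at 54.5, 58.3 and 53.1 CPM with TBHP, and at 51.5 and 48.3 CPM in replicates 2 and 3 with FGF21, with replicate 1 between these. In each of the 3 the gap between the groups was narrow, and the log2 fold changes were -0.12, -0.13 and -0.15. Dnajb9, an IRE1 repressor, was at -0.24 (95% interval -0.55 to 0.06), the lowest of all members, and Sdf2l1, a BiP cofactor, at -0.23 (95% interval -0.56 to 0.10). Both of these had a low value in replicate 3 of the TBHP group too, at 36.4 and 31.5 CPM. The smallest adjusted p among the 5 was 0.574 by edgeR.

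**Figure D3:**
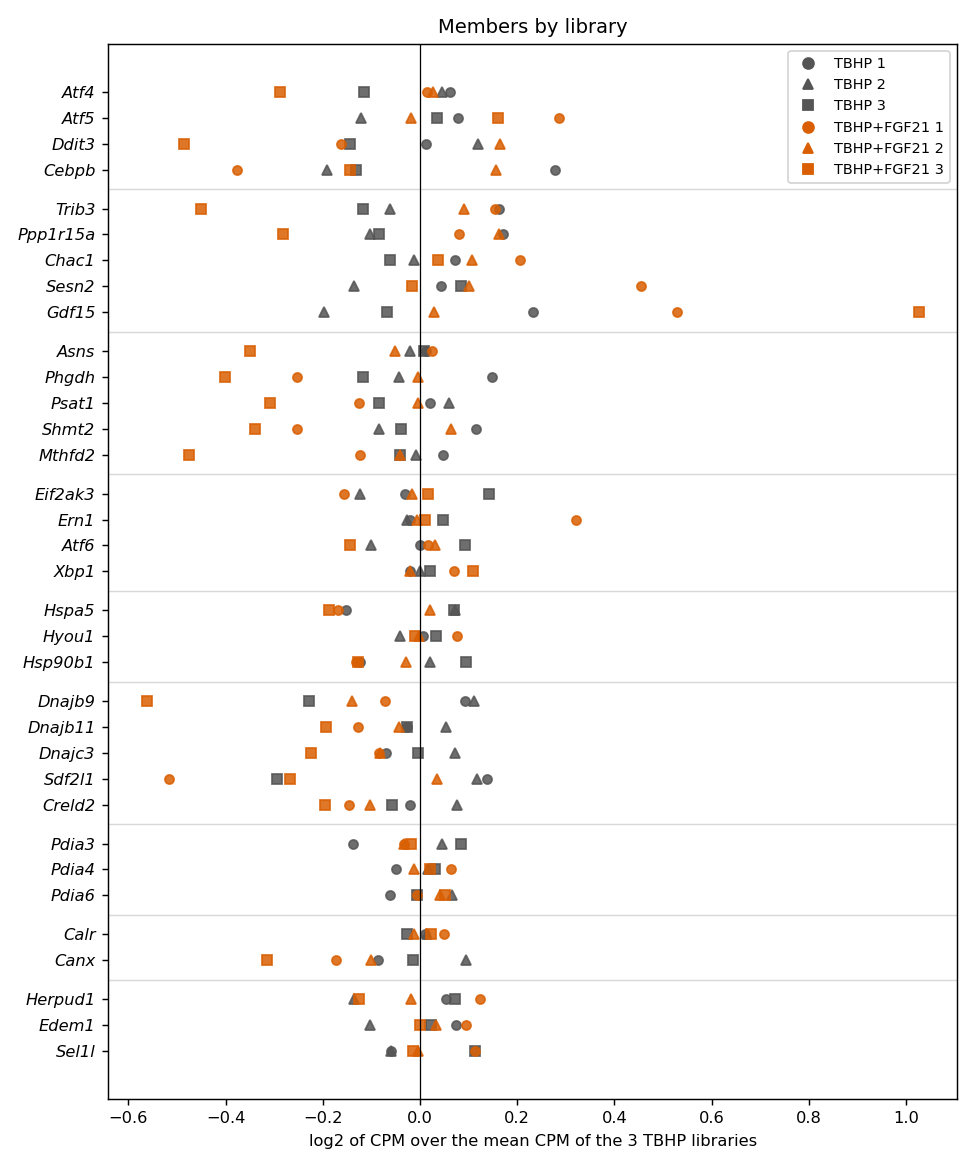
Level of each member in each library, as log2 of CPM over the mean CPM of the 3 TBHP libraries (x axis), with genes on the y axis grouped by role. Grey marks are TBHP and orange marks TBHP+FGF21, with circles, triangles and squares for replicates 1, 2 and 3. Orange squares are the lowest mark for 16 of the 34 members, and orange triangles for 0.

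Genes of protein folding and entry into the ER that were no members were mostly lower in the group mean. Of 52 listed genes of folding and translocation, 46 were tested, of which 36 were lower and 10 higher, with a median of -0.09. At an unadjusted p under 0.05 there were 7 lower (15.2%, against 4.29% of all genes) and none higher (4.63% of all genes), and none had an adjusted p under 0.05. Spcs3, a subunit of the signal peptidase, had the smallest p, at 136, 160 and 132 CPM with TBHP and 111, 126 and 94.0 CPM with FGF21 (log2 fold change -0.37, SE 0.12, adjusted p = 0.553 by edgeR). The other 6, named after their values were seen, were the translocon and translocon-associated genes Sec61g, Ssr1, Ssr3 and Serp1, the oligosaccharyltransferase subunit gene Ostc and the prolyl isomerase gene Fkbp14, at log2 fold changes from -0.54 to -0.23. Sec61g was at 120, 116 and 61.2 CPM with TBHP and 60.5, 88.8 and 55.0 CPM with FGF21. Its groups overlapped through replicate 3 of the TBHP group. Leaving out TBHP+FGF21 replicate 2 called 5 genes of the list lower (3.72% of all genes were), Spcs3, Sec61g and Serp1 among them. Without replicate 3, Spcs3 was at -0.26 and Serp1 at -0.18. Txndc11 at 0.12 (adjusted p = 0.658 by edgeR) had the smallest p upward.

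ERAD genes return misfolded proteins to the cytosol for degradation. Herpud1, a scaffold of this machinery, was at 157 ± 12.3 CPM with TBHP and 157 ± 13.5 CPM with FGF21 (SD, n = 3). Edem1, which marks misfolded glycoproteins, and Sel1l, the adaptor of the ubiquitin ligase HRD1, had log2 fold changes of 0.04 and 0.03. Their 95% intervals, -0.15 to 0.24 and -0.17 to 0.24, hold both directions. Of 28 other ERAD genes tested, 15 were higher and 13 lower, with a median of 0.01 and none under 0.05 unadjusted. Selenos, at -0.24, had the smallest p of those that were lower (adjusted p = 0.557 by edgeR).

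The values of members with and without an ER stress element overlapped. The 10 members with ERSE or ERSE-II had a median log2 fold change of -0.11, with 7 lower, and a range from -0.19 to 0.06. The 20 members whose promoter held neither had a median of -0.06, with 12 lower, and a range from -0.24 to 0.59. Of the 28 other genes with either element, 12 were tested, of which 7 were lower, with a median of -0.05. Of these 12, 1 was under 0.05 unadjusted, where 4.63% of all genes were higher and 4.29% were lower at that level.

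The libraries of the TBHP+FGF21 group differed among themselves. The median deviation of the 14 ATF4 programme members from their own mean over all libraries was 0.10, -0.01 and -0.05 in the TBHP group and 0.07, 0.07 and -0.25 in the TBHP+FGF21 group (log2 CPM, replicates 1, 2 and 3). Replicate 3 with FGF21 was thus low, and the other two lay among the TBHP libraries. For the 16 chaperone and ERAD members the values were -0.0016, 0.07 and 0.03 in the TBHP group and -0.02, -0.01 and -0.10 with FGF21. The coefficient of variation between replicates had a median over members of 6.80% in the TBHP group and 8.38% in the TBHP+FGF21 group, and it was larger in the latter for 23 of 34 members. It was not computed over all genes, so this is not shown to be particular to the members. With TBHP+FGF21 replicate 2 left out, 8 of 34 members had an unadjusted p under 0.05, a share like the 23.6% of all genes in the same fit. Gdf15 and Atf5 were higher, and Ddit3, Canx, Mthfd2, Phgdh, Sdf2l1 and Shmt2 were lower. Apart from Gdf15, their adjusted p lay between 0.0829 (Phgdh) and 0.194 (Canx) by edgeR.

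**Figure D4:**
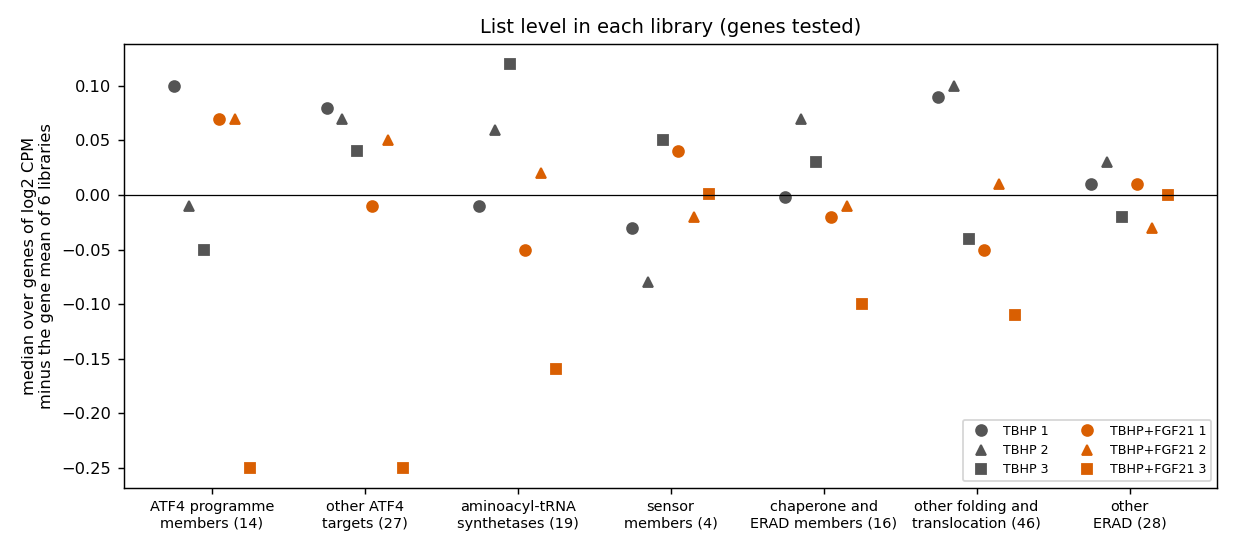
Median over the tested genes of each list of log2 CPM minus the gene's mean over the 6 libraries (y axis), by list (x axis, number of genes in brackets) and library. Replicate 3 of the TBHP+FGF21 group (orange square) is at -0.25 for the ATF4 programme members and the other ATF4 targets, and near 0 for the sensors and the other ERAD genes.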

How the data were processed

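RNA-seq of 6 libraries was analysed, 3 per group. The authors deposited whole counts per Ensembl gene for each library, and 1 table of all libraries with unscaled read counts by gene symbol. Because 22 of its rows are not whole, the table the authors deposited was handled like estimated counts, with these rows rounded up. Per the labels, STAR and featureCounts were used. Versions, genome build and annotation are not given in the sources used here. Multimapping reads (6.27% to 7.02%) were not counted, so that genes with near-identical copies may read low.

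Counts were normalized by TMM, filtered with filterByExpr and fitted on condition alone with edgeR 4.0.16 in R 4.3.3 (glmQLFit, glmQLFTest, Benjamini-Hochberg over 11426 genes), after the fits had been tested on simulated data. Levels are CPM after TMM scaling. Standard errors are the log2 fold change over the square root of F, and 95% intervals use the test's degrees of freedom. The series text calls the replicates biological but no label ties them to animals or cultures, so p measures the spread between these libraries. Alternatives used DESeq2 1.42.0, limma 3.58.1, other filters, the per-sample counts, a replicate block and leaving out each library.

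The members, gene lists and roles were chosen with earlier results of these data known. All 34 members with a row are named. Of each other list, the gene with the smallest p in each direction is named, except for an item that is not reported here, and others were named after their values were seen. Gene names in the per-sample files were taken from rows with identical counts, which named all 34 members.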

Additional observations from a re-analysis of the deposited data

How the results depend on the processing

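No member had an adjusted p under 0.05 with any alternative other than leaving out replicate 2 of the TBHP+FGF21 group, when Gdf15 alone did. The number of all genes with an adjusted p under 0.05, 1 in the reported fit, was 0 with the per-sample counts and with limma-voom, 4 with the DESeq2 Wald test, 5 with no filter on low counts, 2 with the replicate block, and from 0 to 867 when a library was left out, the 867 without replicate 2 of the TBHP+FGF21 group. With the per-sample counts and limma-voom, 1082 and 996 genes had an unadjusted p under 0.05. Members with an unadjusted p under 0.05 were 1 in every alternative with all libraries except the replicate block. The block gave 3 of 34 (Dnajb9, Gdf15 and Phgdh), where 1599 of all 11426 genes were under 0.05, a larger share. With a library left out, from 0 to 8 members were under 0.05. Dropping TBHP replicate 2 gave 0 members, where 337 of 11536 genes were under 0.05. Dropping TBHP+FGF21 replicate 2 gave 8, where 2732 of 11559 genes were. Same-numbered libraries of the groups correlated in their deviations at -0.158, 0.305 and 0.201, and differently numbered ones at -0.332 to 0.233. These values do not decide whether the numbers mark pairs. No label ties the numbers to shared cultures, so they were not taken as pairs in the reported fit.

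The median of the ATF4 programme moved by less than the spread between replicates in every alternative. Even so, with a library left out it ranged from -0.13 to 0.02. The median of the chaperone and ERAD members, -0.06, lay between -0.10 and -0.01 with a library left out. These were the values without TBHP replicate 1 and without TBHP replicate 3, and both moves reached the spread between replicates. Signs turned for members near 0, and also for Ddit3 and Cebpb, at -0.14 and -0.10 in the reported fit. Herpud1 was at 0.0040 with the per-sample counts, 0.0038 with DESeq2 size factors and with the DESeq2 Wald test, and 0.01 with either other filter. Ppp1r15a was at -0.0045 with limma-voom and -0.0043 with the replicate block. With a library left out, the ranges that crossed 0 were -0.12 to 0.03 (Atf4), -0.31 to 0.02 (Ddit3), -0.14 to 0.13 (Trib3), -0.24 to 0.07 (Cebpb), -0.08 to 0.13 (Ppp1r15a), -0.11 to 0.04 (Eif2ak3), -0.07 to 0.03 (Atf6), -0.09 to 0.02 (Pdia3), -0.07 to 0.06 (Herpud1) and -0.01 to 0.09 (Edem1). The cause was not tested. Each member had at least 569 counts in every library, and with 3 libraries a group the intervals are wide beside most differences.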
